A study of Homo sapiens with 12 samples.

Results

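The nuclear genes for subunits of the mitochondrial respiratory chain were followed in RNA-seq of K562 cells. They were chosen by name among the protein-coding genes of the count table (NDUFA, NDUFB, NDUFC, NDUFS and NDUFV genes with a number, SDHA to SDHD, the UQCR genes, CYC1, COX4 to COX8 genes and the ATP5 genes). The rule uses names alone, but the members were chosen with earlier results of these data known. The rule found 91 of 58735 genes. By complex, 36 belong to complex I, 4 to complex II, 10 to complex III, 19 to complex IV and 20 to complex V, and 2 are read-through genes that join a subunit gene to its neighbor. NDUFA4 and its paralog NDUFA4L2 were placed with complex IV, where NDUFA4 protein is found. Enough counts for a test were present for 85 of the 91. The other 6 were COX4I2, COX6A2, COX8C, ATP5MGL and the read-through genes ATP5MF-PTCD1 and NDUFC2-KCTD14.

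The respiratory chain passes electrons from NADH (complex I) and succinate (complex II) through ubiquinone to complex III, then by cytochrome c to oxygen at complex IV, and ATP synthase (complex V) uses the resulting proton gradient to make ATP. Most subunits are encoded in the nucleus and imported, whereas a few core subunits of complexes I, III, IV and V are encoded by mitochondrial DNA, so that both genomes supply each of these complexes. In erythroid precursors, mitochondria also complete heme synthesis and are removed as the cell matures.

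K562 is a human erythroleukemia line driven by the BCR-ABL1 kinase, which nilotinib inhibits, and hemin is an iron porphyrin that induces hemoglobin in these cells. There were 4 groups of 3 biological replicates: mock DMSO (no hemin, solvent), mock nilotinib (no hemin, 0.1 µM nilotinib), hemin DMSO (50 µM hemin for 24 h, solvent) and hemin nilotinib (50 µM hemin for 24 h with 0.1 µM nilotinib given beforehand). All groups were the same single cell line with its fusion kinase, and no gene was altered. The methods describe 24 h of pretreatment with solvent or inhibitor, then 24 h of hemin, with collection at 0 and 24 h. The library names carry 0 for the mock groups and 24 for the hemin groups. The mock cells may therefore have been collected earlier than the hemin cells, and in the comparisons of hemin with mock, hemin and time cannot be told apart. On that reading, the mock nilotinib cells had 24 h of nilotinib and the hemin nilotinib cells longer, but the methods do not state this for the sequenced libraries. The 2 comparisons of nilotinib with DMSO, and the difference between them, may therefore set different exposure times side by side, and hemin and exposure time cannot be told apart there.

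The libraries held 33457078 to 50506990 counts, and the 91 genes took 0.676% to 1.18% of a library. The 10 listed markers of K562 and its erythroid character (such as GATA1, TAL1, HBG1 and ABL1) were all detected, with summed levels of 1796 to 2365 CPM (counts scaled to 1e+06 per library, on the TMM scale of edgeR) in mock DMSO, 4469 to 5936 in mock nilotinib, 1163 to 1231 in hemin DMSO and 4554 to 5404 in hemin nilotinib. Of the markers of other lineages, PF4, PPBP, GP9, MPO, ELANE, MS4A1, CD3E and CD8A stayed below 0.5 CPM in every library. The myeloid list summed to 25.9 to 38 CPM in mock DMSO, 3.3 to 4.84 in mock nilotinib, 30.5 to 46 in hemin DMSO and 2.19 to 4.07 in hemin nilotinib, most of it LYZ. The epithelial list, mostly KRT8, summed to 381 to 439, 149 to 186, 556 to 820 and 117 to 143 CPM in the same order. The median log2 level of the 85 subunits, relative to the mean of mock DMSO, was 0.07, 0.71 and 0.36 in hemin DMSO replicates 1, 2 and 3, a wider range than in any other group. Over all genes, the hemin nilotinib replicates 1 and 3 differed most among pairs of 1 group (chi-square of 252 per degree of freedom, against at most 119 in hemin DMSO). These markers and this spread moved with the groups, and their part in the results was not tested.

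In untreated cells (mock DMSO), levels per kilobase of gene model spread widely within each complex, although the subunits of a complex are needed in fixed proportions. ATP5F1B, the catalytic beta subunit of ATP synthase, stood highest of all at 552 ± 36.2 CPM per kb (SD, n = 3), and the next in complex V, ATP5PB of the peripheral stalk, was at 74.7 ± 2.47. ATP5F1D, ATP5F1C and ATP5MC2 followed at 71.2 ± 4.84, 70.5 ± 1.89 and 65.5 ± 7.3 CPM per kb, and each of these 4 overlapped its neighbor in that order. In complex III, the hinge protein gene UQCRH led at 292 ± 26.9 CPM per kb, followed without overlap by cytochrome c1 (CYC1) at 142 ± 5.37. In complex IV the order was COX8A at 228 ± 14.3, COX6B1 at 125 ± 8.07 and COX5A at 110 ± 6.18 CPM per kb, again without overlap. NDUFS5, an accessory subunit of complex I, was at 186 ± 7.73, ahead of NDUFB7 at 107 ± 2.17. In complex II, the iron-sulfur subunit SDHB (44.4 ± 3.01) exceeded SDHD and SDHA, which overlapped each other at 24 ± 0.883 and 23.9 ± 0.0305, and SDHC was lowest at 7.35 ± 0.466. Isoforms best known from muscle or testis were at the bottom of complex IV: COX7A1, COX6B2 and COX7B2 lay at 0.299, 0.302 and 0.275 CPM per kb. These lengths sum all exons of a gene, so a gene with long rarely used exons reads lower on this scale.

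RefSeq promoters (assembly GRCh38.p14, 250 bases before to 50 after the start) were matched for 71 of the 91 genes. Sequences known to bind NRF1, ETS factors such as GABP, and YY1 were searched on both strands as exact letters. GCGCATGCG (NRF1) was present in 10 of the 71 (14.1%) against 1.9% of all 35116 promoters, CCGGAAG (ETS) in 20 (28.2%) against 10.3%, and AAGATGGCG (YY1) in 8 (11.3%) against 1.7%. At least 1 of the 3 was found in 31 of the 71 (43.7%) and in 13.1% of all promoters. GCGCATGCG and its reverse complement overlap by all but 1 base, so a palindromic site matches on both strands. Median GC content was 61% in the 71 promoters and 58.7% in all. The 130 bases before the start are shown for 4 genes picked for their matches, whose RNA was higher in hemin DMSO or, for SDHD, lower. They are also shown for UQCRFS1 and NDUFV3, which had the largest falls of complexes III and I with hemin in DMSO. NDUFA13 and NDUFA10 of complex I also fell and are not shown, and NDUFA13 holds the ETS letters at -10. NDUFB11 and ATP5MC1, with the largest called rises of complexes I and V, are not shown either. Their windows hold none of the 3 motifs. With hemin in DMSO, 17 of 31 tested subunits with a motif rose and 2 fell. Of the 37 without a motif, 15 rose and 6 fell. The genes shown are therefore not a fair sample of motif and direction. Letters of a match are in capitals. COX5B holds a further CCGGAAG that runs across its start and is not marked.
COX5B, chr2:97645932-97646061, plus strand: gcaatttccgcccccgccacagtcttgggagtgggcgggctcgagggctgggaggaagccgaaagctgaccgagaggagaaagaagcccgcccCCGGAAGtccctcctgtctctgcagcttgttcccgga
ATP5PF, chr21:25735055-25735184, minus strand: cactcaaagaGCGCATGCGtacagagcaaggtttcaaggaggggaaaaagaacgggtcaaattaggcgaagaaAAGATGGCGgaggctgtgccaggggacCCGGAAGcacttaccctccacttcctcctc
SDHD, chr11:112086743-112086872, plus strand: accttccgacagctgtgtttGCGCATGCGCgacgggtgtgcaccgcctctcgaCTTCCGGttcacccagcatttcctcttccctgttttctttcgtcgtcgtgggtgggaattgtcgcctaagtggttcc
UQCRQ, chr5:132866512-132866641, plus strand: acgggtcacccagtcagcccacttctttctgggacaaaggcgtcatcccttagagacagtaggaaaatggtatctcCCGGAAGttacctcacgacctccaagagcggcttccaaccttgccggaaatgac
UQCRFS1, chr19:29213152-29213281, minus strand: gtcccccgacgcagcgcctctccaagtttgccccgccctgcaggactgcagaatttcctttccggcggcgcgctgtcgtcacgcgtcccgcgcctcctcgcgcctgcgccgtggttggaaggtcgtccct
NDUFV3, chr21:42893179-42893308, plus strand: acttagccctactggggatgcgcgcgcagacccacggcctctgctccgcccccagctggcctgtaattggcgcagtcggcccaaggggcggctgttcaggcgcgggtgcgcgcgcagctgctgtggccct
ATP5PF, a peripheral stalk subunit of complex V, holds all 3 motifs, at positions -120 (NRF1), -57 (YY1) and -30 (ETS) from its start. In SDHD the NRF1 letters are at -110 and the ETS letters at -77. COX5B and UQCRQ hold the ETS letters at -37 and -54. None of the 3 motifs was found in the windows of UQCRFS1 and NDUFV3. A match is a description of the letters and not evidence that a factor binds.

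The first comparison asked how the subunit mRNAs differed between hemin DMSO and mock DMSO. More subunits of complexes I, IV and V rose than fell after hemin (14 and 3 of 36, 10 and 1 of 16, and 11 and 2 of 19), and the largest called rise was 1.83-fold (ATP5MC1), while a few genes, among them NDUFA4L2 and the Rieske iron-sulfur protein of complex III (UQCRFS1), went the other way. In bulk RNA, fewer cells expressing a gene and less RNA per cell cannot be told apart. In all, 40 of the 85 tested subunits rose and 9 fell (edgeR's quasi-likelihood test, Benjamini-Hochberg adjusted p under 0.05), where 25.7% of the 20821 tested genes rose and 27.8% fell (53.6% in either direction). A signed value given with a gene, with its SE where shown, is a log2 fold change from this fit. The median log2 fold change of the subunits was 0.46, against -0.05 over all tested genes. Libraries of the 2 groups did not overlap for 38 subunits that were higher and 9 that were lower, against 29.8% and 32.9% of all tested genes. The fold changes of each complex in the 4 pairwise comparisons are shown in a plot with 1 point per gene.

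**Figure D1:**
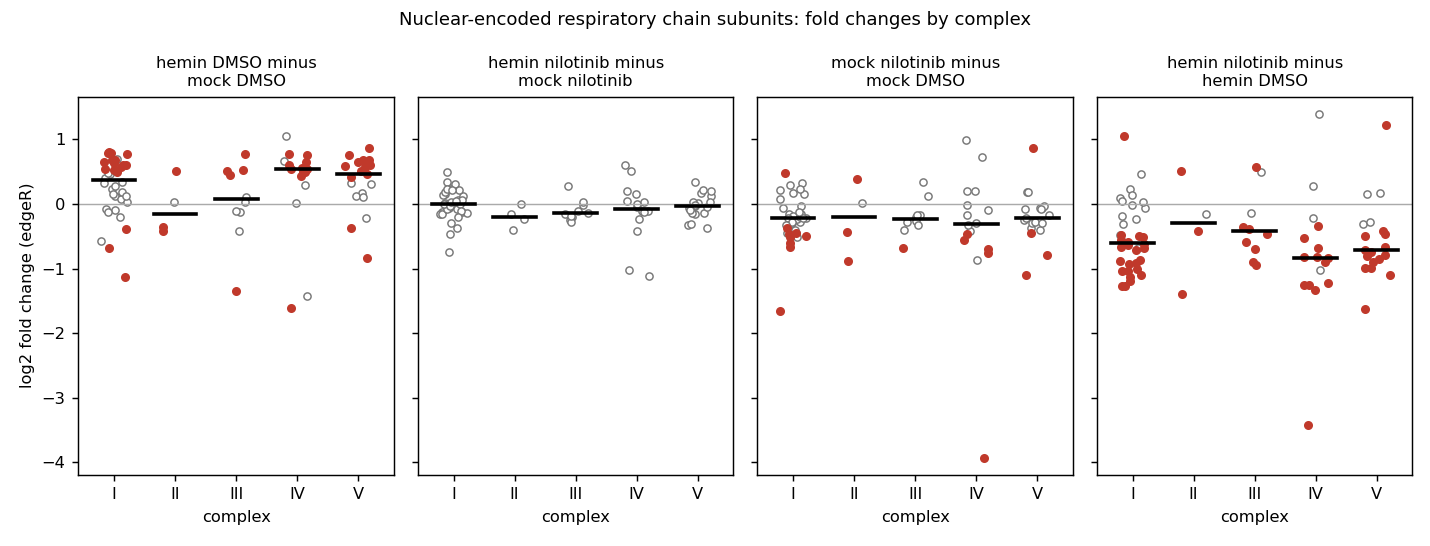
Each point is 1 tested subunit gene, with its log2 fold change (edgeR) on the vertical axis and its complex on the horizontal axis, in 1 panel per comparison; filled red points passed an adjusted p of 0.05, open points did not, and bars mark medians. The medians of complexes I, IV and V lie at 0.37, 0.55 and 0.47 in the first panel (hemin in DMSO), near 0 in the second (hemin in nilotinib) and at -0.60, -0.83 and -0.71 in the last (nilotinib with hemin).

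In complex I, 14 of 36 subunits rose with hemin in DMSO and 3 fell. The risers were accessory subunits and 1 core subunit, NDUFS8, which carries iron-sulfur clusters. The largest rise was that of NDUFB11, a membrane-arm subunit (GRCh38, chromosome X, 47142216 to 47145504), which measured 89.6, 94.6 and 96.5 CPM in mock DMSO, 103, 107 and 115 in mock nilotinib, 134, 206 and 151 in hemin DMSO and 118, 108 and 101 in hemin nilotinib. All 3 hemin DMSO libraries lay above every other library. NDUFB11 rose by 0.81 ± 0.14 (log2 ± SE, adjusted p = 0.000219). NDUFB11 shares 44.9% of its exon bases with the opposite-strand gene RBM10, and since the strand setting of the counting is not given in the sources used here, reads of the 2 cannot be told apart. NDUFB4 and NDUFB6, also in the membrane arm, rose by 0.79 and 0.79, and the intermembrane-space subunit NDUFS5 by 0.77, without overlap of the libraries. Other core subunits did not pass the test: NDUFV1, which binds NADH, had a log2 fold change of 0.34 ± 0.17, NDUFS7 0.33 ± 0.15, NDUFS1 -0.20 ± 0.12, NDUFS3 -0.12 ± 0.15 and NDUFV2 0.69 ± 0.31.

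NDUFV3, a small accessory subunit beside the NADH-binding flavoproteins (chromosome 21, 42879644 to 42913304), moved opposite to most of its complex. It measured 69.4, 73.6 and 72.4 CPM in mock DMSO, 74.2, 65.0 and 59.0 in mock nilotinib, 40.4, 29.5 and 28.3 in hemin DMSO and 80.2, 61.7 and 62.7 in hemin nilotinib. The 3 hemin DMSO libraries were below all 9 others, which overlapped, and NDUFV3 fell by a log2 fold change of 1.13 ± 0.16 with hemin in DMSO (adjusted p = 1.74e-05). NDUFA13, which shares over 20% of its exon bases with another gene on its strand (-0.69), and NDUFA10 (-0.39) also fell, the first from 5.68, 4.05 and 4.07 CPM to 2.67, 2.74 and 3.17, and the second with overlapping libraries.

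The 4 subunits of complex II split. SDHB, which carries the iron-sulfur clusters (chromosome 1, 17018722 to 17054170), measured 103, 108 and 117 CPM in mock DMSO, 57.4, 57.6 and 62.1 in mock nilotinib, 131, 195 and 140.3 in hemin DMSO and 64.5, 60.1 and 52.7 in hemin nilotinib. It was highest in hemin DMSO, lower in mock DMSO and lowest in both nilotinib groups, with no overlap between these 3 levels, and the rise with hemin in DMSO was 0.51 ± 0.14 (adjusted p = 0.00742). SDHA, the flavoprotein that oxidizes succinate, measured 200.1, 201 and 200.4 CPM in mock DMSO, 227, 271 and 292 in mock nilotinib, 178, 161 and 133 in hemin DMSO and 236, 223 and 212 in hemin nilotinib, and it was lowest in hemin DMSO and highest in the nilotinib groups. It fell, at -0.35 ± 0.13 with hemin in DMSO (adjusted p = 0.0369), a call that was lost in 9 of 14 alternative analyses. The membrane anchor SDHD fell as well, -0.41 ± 0.15 (adjusted p = 0.034, lost in 7 of 14), and the other anchor, SDHC, had 0.03 ± 0.13 and passed the test in no comparison.

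Among the called falls with hemin in DMSO, that of UQCRFS1 in complex III was second in size to that of NDUFA4L2. UQCRFS1, the Rieske protein that takes electrons from ubiquinol (chromosome 19, 29205321 to 29213541), measured 96.5, 104 and 109 CPM in mock DMSO, 59.5, 65.9 and 68.0 in mock nilotinib, 44.7, 42.1 and 34.5 in hemin DMSO and 72.2, 59.5 and 48.5 in hemin nilotinib. Every hemin DMSO library was below every library of the other groups, and every mock DMSO library above them, with both nilotinib groups between. With hemin in DMSO it fell to 0.392 of the mock level, a log2 fold change of -1.35 ± 0.15 (adjusted p = 2.16e-06). UQCRQ, a small subunit that contacts cytochrome b, went the other way with 83.3, 68.6 and 77.9 CPM in mock DMSO and 97.2, 169 and 126 in hemin DMSO (0.77 ± 0.20, adjusted p = 0.00438). UQCRH, its near-copy UQCRHL and UQCRB rose by 0.52, 0.51 and 0.46; UQCRHL is an intronless copy of UQCRH, and assignment of reads between them is uncertain, and the calls of UQCRH, UQCRHL and UQCRB were lost in 3, 6 and 3 of 14 alternatives. The core proteins UQCRC1 (0.04 ± 0.16) and UQCRC2 (-0.11 ± 0.13) and the electron carrier CYC1 (-0.12 ± 0.19) did not pass the test.

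In complex IV, cytochrome c oxidase, 10 of 16 tested subunits rose with hemin in DMSO and 1 fell. COX5B, which binds zinc at the matrix face (chromosome 2, 97646040 to 97648383), measured 139, 131 and 139.6 CPM in mock DMSO, 99.2, 98.5 and 100.5 in mock nilotinib, 177, 307 and 217 in hemin DMSO and 107, 92.5 and 78.0 in hemin nilotinib. It was highest in the 3 hemin DMSO libraries, followed by mock DMSO, and lowest in the nilotinib groups, and it rose by 0.78 ± 0.17 (adjusted p = 0.00109). COX7A2 rose by 0.76 ± 0.14, NDUFA4 by 0.64 ± 0.17, COX6B1 by 0.61 ± 0.15 and COX4I1, the ubiquitous form of the subunit through which ATP inhibits the enzyme, by 0.56 ± 0.14, all without overlap of the libraries. COX5A had 0.30 ± 0.18 (adjusted p = 0.169) and did not pass.

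NDUFA4L2, a paralog of NDUFA4 known as a gene induced by hypoxia-inducible factor (chromosome 12, 57234903 to 57240715), gave the largest falls of all the subunit genes. It measured 12.3, 13.7 and 9.99 CPM in mock DMSO, 1.04, 0.613 and 0.692 in mock nilotinib, 3.0, 4.08 and 4.64 in hemin DMSO and 0.144, 0.412 and 0.514 in hemin nilotinib. The 4 groups did not overlap one another: mock DMSO was highest, then hemin DMSO, mock nilotinib and hemin nilotinib. With hemin in DMSO it fell, at -1.62 ± 0.29 (adjusted p = 0.000205). Its counts in the hemin nilotinib libraries were few, at 5, 15 and 22.

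ATP synthase showed 11 rises and 2 falls among 19 tested genes with hemin in DMSO. ATP5MC1, which encodes one of 3 isoforms of the c subunit of the proton-driven ring, measured 56.6, 45.6 and 48.3 CPM in mock DMSO, 33.2, 19.6 and 17.2 in mock nilotinib, 68.6, 121 and 85.7 in hemin DMSO and 45.9, 25.1 and 18.2 in hemin nilotinib. Its libraries were high in hemin DMSO and low with nilotinib, without overlap of hemin DMSO with any other group, and it rose by 0.87 ± 0.29 (adjusted p = 0.0202), a call lost in 4 of 14 alternatives. Of the other c-subunit genes, ATP5MC3 rose by 0.51 ± 0.17 (lost in 5 of 14) and ATP5MC2 had 0.12 ± 0.16. Within the catalytic F1 head, the epsilon subunit ATP5F1E rose by 0.76 ± 0.17, the alpha subunit ATP5F1A fell, at -0.37 ± 0.14 (adjusted p = 0.0408, lost in 8 of 14 alternatives, libraries overlapping), and beta, gamma and delta did not pass, with 0.18, -0.21 and 0.31. ATP5IF1, the inhibitor that stops the enzyme from hydrolyzing ATP, rose by 0.65 ± 0.18. ATP5S, annotated as coupling factor B, measured 15.3, 18.2 and 16.8 CPM in mock DMSO, 18.2, 20.3 and 18.8 in mock nilotinib, 10.4, 8.36 and 9.49 in hemin DMSO and 20.2, 23.2 and 22.6 in hemin nilotinib, and its 3 hemin DMSO libraries were below all others. It fell, at -0.83 ± 0.15 (adjusted p = 0.00017).

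**Figure D2:**
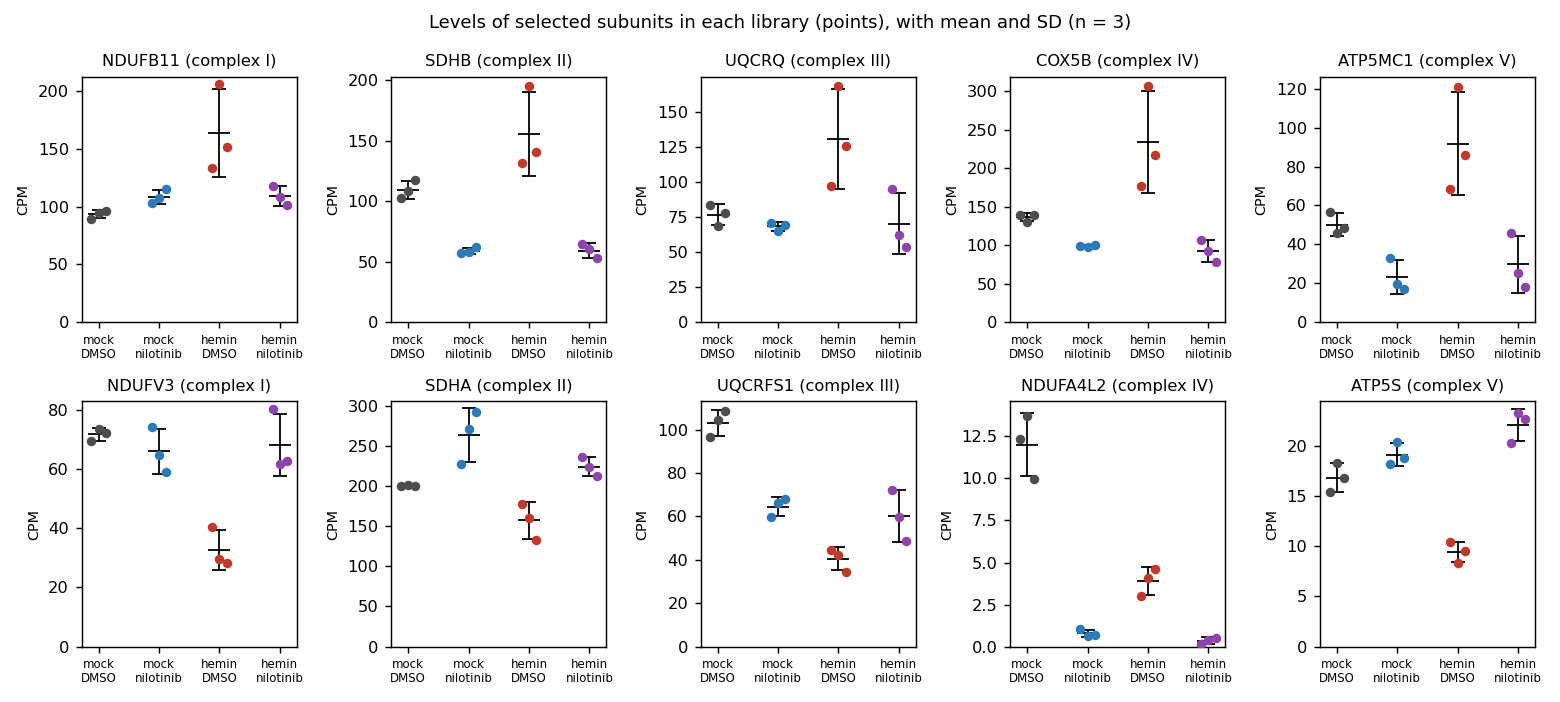
Levels in CPM (vertical axis, from 0) of 10 subunit genes in the 4 groups (horizontal axis), 1 point per library, with the mean and SD of 3 libraries as bars. In the upper row (NDUFB11, SDHB, UQCRQ, COX5B, ATP5MC1) the hemin DMSO libraries are highest, whereas in the lower row NDUFV3, SDHA, UQCRFS1 and ATP5S are lowest in hemin DMSO and NDUFA4L2 is lowest with nilotinib.

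The size of this response depended on the libraries and the scaling. Without hemin DMSO replicate 2 there were 25 rises and 10 falls, and without mock DMSO replicate 1 there were 24 and 8. The falls numbered 5 without mock DMSO replicate 2, mock DMSO replicate 3 or hemin DMSO replicate 1, and 4 without hemin DMSO replicate 3. With library totals alone as the scale, 14 subunits rose and 16 fell, with RLE factors 42 and 4, and with upper-quartile factors 50 and 4; the median of all genes stood at -0.29, -0.0042 and 0.07 on these scales. The distance between the median of the subunits and that of all genes was 0.50 with TMM factors and 0.36 to 0.505 under the other scalings, filters and fits to all replicates, and the falls of UQCRFS1, NDUFV3, NDUFA4L2 and ATP5S and the rises of NDUFB11, COX5B, COX7A2, COX4I1, COX6B1, NDUFA4, UQCRQ, ATP5F1E and ATP5MPL passed the test in all 14 alternatives.

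**Figure D3:**
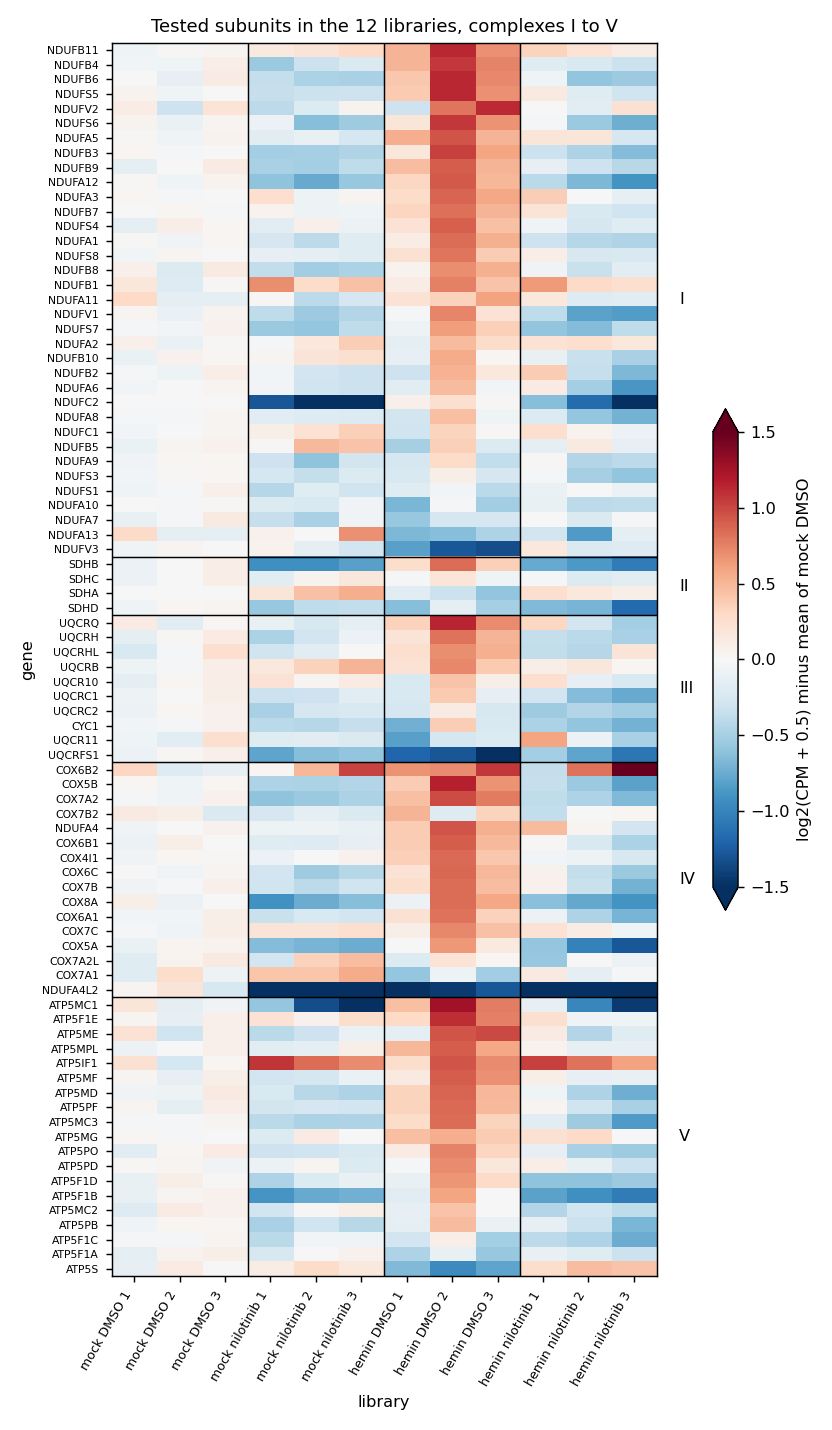
Rows are tested subunit genes grouped by complex (labels at right) and ordered by their fold change with hemin in DMSO, columns are the 12 libraries, and color is log2(CPM + 0.5) minus the mean of mock DMSO, cut at 1.5 either way. Most rows are reddest in hemin DMSO replicate 2, paler in replicates 3 and 1, and blue in the nilotinib columns, while NDUFV3, UQCRFS1 and ATP5S at the foot of their complexes are blue in hemin DMSO.

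The second comparison asked what hemin added in cells that had received nilotinib. No subunit passed the test by edgeR between hemin nilotinib and mock nilotinib, where 3.52% of all tested genes rose and 2.28% fell (5.8% in either direction). Before adjustment, 7 of 85 subunits had a p under 0.05 (1 higher, 6 lower) against 21.6% of all tested genes, and DESeq2 called 2, NDUFA13 (-0.76, adjusted p = 0.0465) and NDUFA4L2 (-1.12, adjusted p = 0.0295). By edgeR these had -0.75 ± 0.27 and -1.11 ± 0.38, the latter with the smallest adjusted p of the subunits, 0.0964. The median log2 fold change was -0.03 over the subunits and 0.03 over all genes, and libraries did not overlap for 3 subunits that were higher and 7 that were lower (11.7% and 11.6% of all genes). NDUFA4L2, with the largest fall with hemin in DMSO, thus also measured lower here, and ATP5MC1, with the largest called rise there, had 0.35 ± 0.30. Other genes that changed with hemin in DMSO had smaller values here: NDUFV3 0.05 ± 0.15, UQCRFS1 -0.10 ± 0.15, NDUFB11 0.00 ± 0.14, COX5B -0.10 ± 0.17, SDHB 0.00 ± 0.15 and ATP5S 0.21 ± 0.14. A miss of the threshold does not show that the levels were equal.

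The third comparison was nilotinib without hemin. Subunits that passed the test mostly fell with the inhibitor alone: 19 of 85 fell and 3 rose, against 21.8% and 20.7% of all tested genes (42.5% in either direction), so that the share that fell was near the background and the share that rose was below it. The median log2 fold change was -0.23 over the subunits and 0.00 over all genes. Libraries did not overlap for 45 subunits that were lower and 8 that were higher, against 31.1% and 29.8% of all genes. With upper-quartile factors the counts were 12 and 4. In a fit to the 6 libraries of these 2 groups alone, 38 fell and 8 rose, while the median of the subunits was -0.22. The shares of all genes called in that fit are not given here, so these counts have no background beside them. Without mock DMSO replicate 3, 12 fell and 1 rose, and the rises were also down to 1 without mock DMSO replicate 1 or 2 or mock nilotinib replicate 2 or 3.

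NDUFA4L2 fell furthest without hemin, to 0.0657 of the mock DMSO level (-3.93 ± 0.33, adjusted p = 1.19e-07). NDUFC2, a subunit at the base of the membrane arm of complex I, measured 14.3, 14.4 and 14.5 CPM in mock DMSO, 5.60, 3.97 and 4.18 in mock nilotinib, 15.2, 17.1 and 14.6 in hemin DMSO and 9.05, 6.2 and 4.21 in hemin nilotinib. Its nilotinib libraries lay below all DMSO libraries, and it fell, at -1.65 ± 0.23 (adjusted p = 3.13e-05); 16.3% of its exon bases also belong to the read-through gene NDUFC2-KCTD14. Among the core of complex I, NDUFS7 (-0.51 ± 0.15) and NDUFV1 (-0.46 ± 0.17) fell, and NDUFS1 had -0.30 ± 0.12 with adjusted p = 0.0581, which became 0.0447 with the replicate number as a block. In complex II, SDHB fell, at -0.89 ± 0.15 and SDHD at -0.44 ± 0.15, and SDHA rose by 0.39 ± 0.13. UQCRFS1 was the one subunit of complex III to fall (-0.68 ± 0.15, adjusted p = 0.00147). UQCRC2 (-0.32 ± 0.13) and UQCRB (0.34 ± 0.14) did not pass, but with the replicate block their adjusted p was 0.0391 and 0.0438.

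In complex IV without hemin, COX8A, COX5A, COX7A2 and COX5B fell, at -0.76, -0.70, -0.55 and -0.46, whereas COX4I1 had -0.01 ± 0.14. COX8A overlaps another gene over 34.5% of its exon bases on the same strand. In complex V, ATP5F1B measured 1186, 1316 and 1344 CPM in mock DMSO, 691, 756 and 778 in mock nilotinib, 1138, 1927 and 1284 in hemin DMSO and 736, 674 and 618 in hemin nilotinib. The 6 nilotinib libraries were all below the 6 DMSO libraries, and ATP5F1B fell, at -0.79 ± 0.18 (adjusted p = 0.00178). ATP5MC1 and ATP5MC3 fell, at -1.10 and -0.45, while the alpha subunit ATP5F1A, which alternates with beta in the F1 ring, had -0.06 ± 0.14. ATP5IF1 had the largest called rise. It measured 155, 110.1 and 135 CPM in mock DMSO, 279, 237 and 217 in mock nilotinib, 158, 255 and 216 in hemin DMSO and 270.1, 233 and 201 in hemin nilotinib. All mock nilotinib libraries were above the mock DMSO libraries, and ATP5IF1 rose by 0.87 ± 0.18 (adjusted p = 0.001). NDUFB1 rose by 0.48 ± 0.19 (adjusted p = 0.0493, and 0.0511 with the replicate block). Of the calls named for nilotinib without hemin, NDUFB1 was lost in 9 of 14 alternatives, ATP5MC3 in 8, COX5B and NDUFV1 in 7, SDHA and SDHD in 6 and NDUFS7 in 1.

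With hemin present, nilotinib lowered most subunits. Between hemin nilotinib and hemin DMSO, 57 of 85 fell and 4 rose, against 31.8% and 32.4% of all tested genes (64.2% in either direction), with a median log2 fold change of -0.63 over the subunits and 0.02 over all genes. Falls made up 22 of 36 subunits in complex I, 2 of 4 in II, 7 of 10 in III, 12 of 16 in IV and 14 of 19 in V. Libraries did not overlap for 49 subunits that were lower and 5 that were higher (32% and 31.5% of all genes). With a 2-fold minimum in addition, 16 falls and 2 rises were left. This comparison shares the hemin DMSO libraries with the first, so the values of the 2 are not independent of each other.

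Among the falls with hemin, NDUFA4L2 came first (-3.42 ± 0.35, adjusted p = 4.68e-07), then ATP5MC1 (-1.63 ± 0.30), SDHB (-1.40 ± 0.15, adjusted p = 6.09e-07) and COX5B (-1.34 ± 0.17, adjusted p = 4.88e-06). COX7A2 (-1.26), COX8A (-1.26) and COX5A (-1.23) of complex IV fell by similar amounts. In complex I, NDUFA12 measured 26.0, 24.6 and 26.7 CPM in mock DMSO, 16.8, 15.0 and 17.2 in mock nilotinib, 32.1, 49.3 and 36.4 in hemin DMSO and 19.4, 15.9 and 13.6 in hemin nilotinib, and each nilotinib library was below each DMSO library. It fell, at -1.27 ± 0.17, NDUFC2 at -1.27 ± 0.23 and NDUFV1 at -1.0 ± 0.17. UQCRH (-0.94 ± 0.16) and UQCRQ (-0.89 ± 0.20) led the falls of complex III, where UQCRC1, UQCRC2 and CYC1 also fell (-0.59, -0.39 and -0.46, the last 2 calls lost in 5 and 8 of 14 alternatives). ATP5F1B fell, at -1.10 ± 0.18, and ATP5F1A had 0.16 ± 0.14 and did not pass.

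The 4 rises were ATP5S (1.23 ± 0.15, adjusted p = 2.35e-06), NDUFV3 (1.06 ± 0.16, adjusted p = 1.98e-05), UQCRFS1 (0.57 ± 0.15, adjusted p = 0.00309) and SDHA (0.51 ± 0.13, adjusted p = 0.00349). All 4 passed in each of 14 alternatives. The 3 hemin DMSO libraries, to which these were compared, were the lowest of the 12 for ATP5S, NDUFV3, UQCRFS1 and SDHA.

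Whether nilotinib acted differently with and without hemin was tested by the difference between its 2 effects. Of 85 subunits, 20 passed: the difference was positive for UQCRFS1, NDUFV3 and ATP5S and negative for 17, where 17.1% of all tested genes passed with a positive and 13% with a negative difference (30.1% in either direction). The median difference was -0.45 over the subunits and 0.06 over all genes. UQCRFS1 fell with nilotinib without hemin and rose with it, a difference of 1.25 ± 0.21 (adjusted p = 0.000442), and the differences of NDUFV3 and ATP5S were 1.18 ± 0.22 (adjusted p = 0.000933) and 1.04 ± 0.20 (adjusted p = 0.00147). The most negative were ATP5F1E at -0.89 ± 0.24 (adjusted p = 0.0105), COX5B at -0.88 ± 0.24 (adjusted p = 0.0114) and NDUFB11 at -0.80 ± 0.20 (adjusted p = 0.008). None of the 4 complex II genes passed, with SDHB at -0.51 ± 0.21 (adjusted p = 0.0716), and ATP5MC1 (-0.52 ± 0.42) and NDUFA4L2 (0.51 ± 0.48), which fell in both settings, did not pass either. ATP5IF1 had -0.71 (adjusted p = 0.0451), lost in 11 of 18 alternatives, and the calls of UQCRH, COX6B1, COX4I1, ATP5MPL, UQCRB and COX7A2 were lost in 10, 9, 5, 4, 2 and 1 of 18. The negative differences numbered 7 with library totals alone (5 positive) and 36 with upper-quartile factors (3 positive). They were sensitive to single libraries: there were 3, 8 and 7 without mock DMSO replicates 1, 2 and 3, 11, 6 and 4 without mock nilotinib replicates 1, 2 and 3, 35 and 8 without hemin DMSO replicates 1 and 2, and 36, 6 and 8 without hemin nilotinib replicates 1, 2 and 3.

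**Figure D4:**
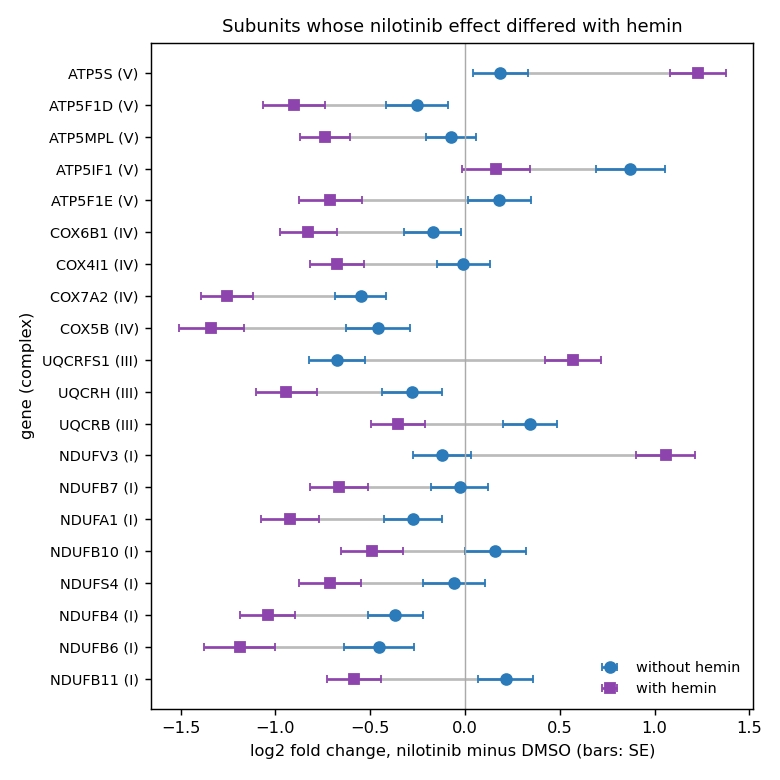
For the 20 subunits whose nilotinib effect differed, points give the log2 fold change of nilotinib against DMSO without hemin (circles) and with hemin (squares), with SE bars, on the horizontal axis. The squares lie right of the circles for UQCRFS1, NDUFV3 and ATP5S and left of them for the other 17.

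The 13 subunits encoded by mitochondrial DNA were followed as a list beside the nuclear ones. With hemin in DMSO, 12 of the 13 fell and none rose, against 27.8% and 25.7% of all tested genes. Their median log2 fold change was -1.99, while the nuclear subunits had a median of 0.46. MT-ATP6, the proton-channel subunit of ATP synthase, measured 3432, 4409 and 3889 CPM in mock DMSO, 4492, 3612 and 3088 in mock nilotinib, 778, 421 and 837 in hemin DMSO and 6062, 4408 and 3079 in hemin nilotinib; the 3 hemin DMSO libraries were lowest (-2.53 ± 0.28, adjusted p = 1.91e-06). MT-CO1, the catalytic subunit of complex IV, had -1.60 ± 0.30, MT-ND6 of complex I -2.05 ± 0.32 and cytochrome b (MT-CYB) -2.29 ± 0.37. With nilotinib on top of hemin, 12 of 13 were higher (median 1.62), against 32.4% of all tested genes. With nilotinib without hemin, 2 of 13 were lower (MT-ND2 at -1.57 and MT-CYB at -1.29, median of the 13 -0.20), against 21.8% of all tested genes. The median with hemin in nilotinib was 0.17. The 13 genes took 0.961% to 2.16% of counts in hemin DMSO and 3.88% to 7.19% in the other groups. In replicates 1, 2 and 3 of hemin DMSO the median of the 13, relative to mock DMSO, was -1.79, -2.55 and -1.52, and replicate 2 thus held both the lowest mitochondrial and the highest nuclear median. The part of this fall in the levels of the nuclear subunits, which are measured as shares of a library, was not tested.

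**Figure D5:**
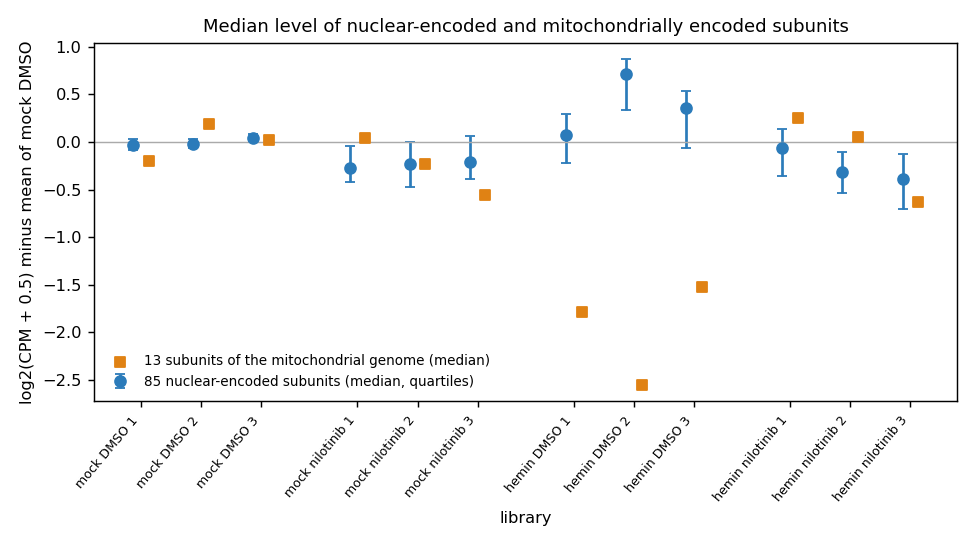
For each of the 12 libraries (horizontal axis), circles with bars give the median and quartiles of the 85 nuclear subunits and squares the median of the 13 mitochondrially encoded subunits, as log2(CPM + 0.5) minus the mean of mock DMSO. In the 3 hemin DMSO libraries the circles lie between 0.07 and 0.71 and the squares between -2.55 and -1.52; elsewhere the 2 are within 1 unit of 0.

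Assembly factors build the complexes but are not part of them. With hemin in DMSO, 8 of 50 rose and 19 fell, with a median of -0.23 (25.7% and 27.8% of all tested genes rose and fell). In complex IV, 12 of 22 fell, among them COA3 (-1.60 ± 0.21), which stabilizes newly made MT-CO1, the copper chaperone SCO1 (-1.01 ± 0.18) and the heme A synthesis enzyme COX10 (-1.28 ± 0.22), and 4 rose, among them COX20 (1.61 ± 0.24), a chaperone of MT-CO2. With nilotinib, 12 rose and 10 fell of the 50 in hemin (32.4% and 31.8% of all tested genes), and 2 rose and 12 fell without hemin (20.7% and 21.8%). NDUFAF2, an assembly factor of complex I, measured 21.1, 19.1 and 21.6 CPM in mock DMSO, 4.69, 4.70 and 6.34 in mock nilotinib, 22.4, 36.1 and 28.8 in hemin DMSO and 5.63, 4.17 and 4.51 in hemin nilotinib, low in all 6 nilotinib libraries (-1.98 ± 0.20 without and -2.61 ± 0.20 with hemin). ATPAF2, a chaperone of the F1 alpha subunit, measured 10.6, 9.95 and 10.5 CPM in mock DMSO, 28.2, 34.2 and 30.6 in mock nilotinib, 11, 9.51 and 9.18 in hemin DMSO and 30.2, 28.9 and 27.9 in hemin nilotinib and was high in the same 6 (1.58 ± 0.14 and 1.55 ± 0.14). With hemin in nilotinib, the median of the 50 was 0.02.

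Of 5 genes for other electron carriers and the acyl carrier protein, cytochrome c (CYCS) was lower with nilotinib, -1.51 ± 0.22 without and -1.36 ± 0.22 with hemin, from 223, 215 and 236 CPM in mock DMSO to 96.9, 72.7 and 67.7 in mock nilotinib. The acyl carrier protein NDUFAB1, which is also a complex I subunit outside the naming rule, fell (-0.66 ± 0.16 and -0.72 ± 0.16), and ETFB, of the electron transfer flavoprotein, rose without hemin (0.37 ± 0.14). Of 13 tricarboxylic acid cycle enzymes, 7 fell and 2 rose with nilotinib without hemin (21.8% and 20.7% of all tested genes), 8 fell and 2 rose with hemin (31.8% and 32.4%), and 1 fell and 1 rose with hemin in DMSO (27.8% and 25.7%). IDH3A, of the NAD-dependent isocitrate dehydrogenase, fell, at -1.36 ± 0.17 and -1.22 ± 0.17 with nilotinib.

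Of 12 regulators of mitochondrial biogenesis, 11 were tested, and 7 fell and 1 rose with nilotinib without hemin (21.8% and 20.7% of all tested genes). The coactivator PPARGC1B measured 46.8, 44.2 and 38.4 CPM in mock DMSO, 14.5, 8.96 and 5.54 in mock nilotinib, 13.5, 12.9 and 17.5 in hemin DMSO and 16.1, 8.56 and 7.57 in hemin nilotinib, and mock DMSO was above all other libraries (-2.15 ± 0.31, adjusted p = 3.31e-05). TFB2M, needed to start mitochondrial transcription, fell, at -1.10 ± 0.14 and TFAM, which packages mitochondrial DNA, at -0.85 ± 0.18. In hemin DMSO, 6 fell and 2 rose (27.8% and 25.7% of all tested genes): the nuclear receptor ESRRA fell, at -1.14 ± 0.13 and PPARGC1B at -1.56 ± 0.30, while GABPB1, the partner of the ETS factor GABPA, rose by 1.19 ± 0.13 and NRF1 by 0.52 ± 0.13. GABPB1 measured 25.8, 27.7 and 28.0 CPM in mock DMSO, 22.8, 24.3 and 23.1 in mock nilotinib, 57.5, 72.2 and 55.7 in hemin DMSO and 24.4, 29.5 and 26.6 in hemin nilotinib, highest in hemin DMSO. GABPA itself had -0.04 ± 0.14 there.

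Length differed between the subunits that rose and those that fell with hemin. With all tested genes in 4 classes of about equal number by length, 16 of the 25 subunits in the shortest class (up to 1712 bases) rose with hemin in DMSO and none fell, where 23.8% of all genes of that class rose and 19.6% fell. In the longest class (from 6272 bases), 3 of 12 subunits rose and 5 fell, against 26.1% and 33.1% of all genes. The 40 that rose had a median length of 2018 bases and the 9 that fell 6345. With nilotinib and hemin, 19 of 25 fell in the shortest class and 4 of 12 in the longest, while 21.7% and 34.6% of all genes in these classes did. Among the 68 tested subunits with a matched promoter, 17 of 31 with at least 1 of the 3 motifs and 15 of 37 without rose with hemin in DMSO, and 22 of 31 and 22 of 37 fell with nilotinib in hemin. The part of length or of promoter letters in these results was not tested. Of the tested subunits, 6 share over 20% of their exon bases with another gene on the same strand, 10 with a gene on the opposite strand, and 3 (NDUFA7, NDUFB8 and NDUFV2) share over 20% of their 150-base words with transcripts of other genes, so their values may include reads of those genes.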

How the data were processed

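RNA was sequenced from 12 libraries of K562 cells, 3 biological replicates in each of 4 groups. The authors deposited counts per gene that were not normalized, and these were the values used. Deposited FPKM tables were not used. The submitters' processing notes name GRCh38.p12, DESeq and DESeq2. The aligner, the counter and the strand setting are not given in the sources used here. All 91 gene positions in the count table equal those of GENCODE release 29.

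Genes were kept by filterByExpr of edgeR 4.0.16 (at least 10 counts in enough libraries and 15 in all), which left 20821 of 58735. A quasi-likelihood model with 1 term per group and TMM factors was fitted to all 12 libraries, and 5 contrasts were tested with Benjamini-Hochberg adjustment over all tested genes. CPM are on the TMM scale. The rule for named genes took, in each complex and pairwise comparison, the largest called rise and fall among genes with a mean of at least 100 counts, together with the redox and catalytic core subunits, isoform pairs and ATP5IF1, and up to 10 genes of the interaction by adjusted p. Other subunits named with values, and the genes singled out from the other lists, were chosen after their values were seen. The own values of 1 subunit are not reported here, although it is included in the counts and medians. The members and lists were chosen with earlier results of these data known. Alternatives were DESeq2 1.42.0, other scaling factors and filters, fits to fewer libraries, a block for the replicate number, and leaving out each replicate. On simulated counts for hemin DMSO against mock DMSO (20821 genes), edgeR found 95 of 100 genes changed 3-fold and 60 of 100 changed 2-fold, with 4 false calls. Only these genes were changed in the simulation, as many up as down, whereas 53.6% of the tested genes were called in the data. The simulation therefore does not give the rate of false calls in these data. Libraries held 33457078 to 50506990 counts. Replicates of 1 group differed by a chi-square of 13.7 to 252 per degree of freedom over genes, so the spread between replicates exceeded counting error. In addition, 3 replicates against 3 cannot give an exact permutation p below 0.1, so tests on single values were not used. Same-numbered libraries deviated together between mock DMSO and mock nilotinib (correlations of 0.155 to 0.215) and between mock nilotinib and hemin nilotinib (0.44 to 0.48), but not in every pair of hemin DMSO and hemin nilotinib (-0.095 to 0.281).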

Additional observations from a re-analysis of the deposited data

Results flagged for a closer look

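The effect of nilotinib on 20 subunits differed between cells with and without hemin by the interaction test of edgeR (Benjamini-Hochberg adjusted over all tested genes), that is 20 of 85, against 30.1% of all tested genes. All values are the effect with hemin minus the effect without it, in log2 units. The difference was positive for UQCRFS1 (1.25), NDUFV3 (1.18) and ATP5S (1.04). It was negative for 7 subunits of complex I, namely NDUFB11 (-0.80), NDUFB6 (-0.74), NDUFB4 (-0.67), NDUFS4 (-0.65), NDUFB10 (-0.65), NDUFA1 (-0.65) and NDUFB7 (-0.64). In complex III it was negative for UQCRB (-0.70) and UQCRH (-0.66), and in complex IV for COX5B (-0.88), COX7A2 (-0.71), COX4I1 (-0.67) and COX6B1 (-0.66). In ATP synthase it was negative for ATP5F1E (-0.89), ATP5IF1 (-0.71), ATP5MPL (-0.67) and ATP5F1D (-0.65). The calls of ATP5IF1, UQCRH and COX6B1 were lost in 11, 10 and 9 of 18 alternatives. The 3 hemin DMSO libraries that enter each of these differences had medians of 0.07, 0.71 and 0.36 over the subunits, and the part of that spread was not tested.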

How the results depend on the processing

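No named gene called in a comparison changed sign there under any alternative, but the balance of rises and falls did. For hemin in DMSO, falls numbered 5 with DESeq2, 4 with RLE and 4 with upper-quartile factors, against 9, and library totals alone gave 14 rises and 16 falls. For nilotinib without hemin, upper-quartile factors gave 12 falls and a median of -0.12. The 6 libraries alone gave 8 rises and 38 falls, and these with the replicate block, added after seeing the data, 10 and 40. In both of these fits the subunit median was -0.22, and the shares of all genes called are not given here. For nilotinib with hemin, library totals gave 8 rises. For hemin in nilotinib, DESeq2 called 2 falls, all genes with at least 1 count gave 1 and the libraries compared with the block gave 1. For the interaction, upper-quartile factors gave 36 negative differences, and library totals gave 5 positive and 7 negative. With a 2-fold minimum, the rises and falls were 0 and 3 for nilotinib without hemin, 2 and 16 with hemin, and 0 and 3 for hemin in DMSO, and no negative interaction (0) was left.

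With single replicates left out, hemin in DMSO gave 24 to 48 rises and 4 to 10 falls (median 0.29 to 0.56), nilotinib with hemin 4 to 6 and 44 to 59 (-0.71 to -0.49), nilotinib without hemin 1 to 3 and 12 to 16 (-0.31 to -0.22), hemin in nilotinib 0 to 0 and 0 to 1 (-0.17 to 0.04), and the interaction 3 to 4 and 3 to 36 (-0.55 to -0.29). Under the replicate block, rises and falls were 3 and 22 for nilotinib without hemin, 4 and 56 with hemin, 42 and 9 for hemin in DMSO, 0 and 0 for hemin in nilotinib and 3 and 17 for the interaction. The block moved 6 calls of named genes. NDUFB1 (0.0511) without hemin and CYC1 (0.0554) with hemin lost theirs under nilotinib, NDUFS1 (0.0447), UQCRC2 (0.0391) and UQCRB (0.0438) gained one for nilotinib without hemin, and NDUFB1 (0.0463) gained one for hemin in DMSO, by edgeR's adjusted p.

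Depth limits the lowest genes most, such as NDUFA4L2 with 5 counts in a hemin nilotinib library.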
